A study of Homo sapiens with 18 samples.

Results

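The genes described here are 53 translation factors, the proteins that start, carry forward and end protein synthesis on cytosolic ribosomes. They were taken by symbol from the 60683 gene rows of 2 count tables, and all 53 were found in both. They were measured by poly(A) RNA sequencing in 18 libraries in 6 groups of 3, all from the human colorectal cancer cell line HCT-116. In the first table, ACTB-mut cells carried a construct for mutant beta-actin, ACTB-WT cells carried one for wild-type beta-actin, and Actin KO cells carried an empty one. Per the series design, the mutant form is H73A and all 3 groups are Actin KO cells that stably express their construct, so the knockout is shared by the group that serves as control. In the second table, SETD3 KO1 and SETD3 KO2 were 2 knockout lines of SETD3, the methyltransferase that acts on a histidine of actin, and SETD3 CT was their control. The labels do not say whether a line is 1 clone, nor whether the 3 libraries of a group came from separate cultures, so p-values measure the spread between these libraries, which may be technical. The cell line label of SETD3 KO2 replicate 3 reads HCT-117, and that library was kept in its group.

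Translation starts when eIF2, loaded with GTP and the initiator tRNA, joins eIF3 and the small ribosomal subunit, and when eIF4 proteins bring the capped mRNA to that complex. Elongation then runs in cycles: eEF1A delivers aminoacyl-tRNA, the eEF1B complex recharges eEF1A with GTP, and eEF2 moves the ribosome along. Release factors end the cycle at a stop codon. Many mRNAs of this machinery, among them those of eEF1A and eEF2, begin with a terminal oligopyrimidine tract (TOP), a C followed by a run of C and T, through which mTOR signalling is known to control their translation.

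Library totals ran from 3389586 to 11652967 counts, and the 53 genes held between 2.32% and 2.737% of them. Levels are given as CPM, counts scaled by library size with TMM factors. ACTB mRNA lay at 32 to 47.1 CPM in ACTB-mut, 23.2 to 31 CPM in ACTB-WT and 14.9 to 24.9 CPM in Actin KO, whereas all libraries of the SETD3 table held 662 to 1460 CPM. ACTB-WT thus overlapped Actin KO. Whether RNA of the constructs is counted under ACTB is not known, so this level does not check that the constructs were expressed. SETD3 mRNA was 15.6, 22.3 and 27.7 CPM in SETD3 KO2 and 6.81, 6.34 and 17.1 CPM in SETD3 KO1, against 15.5, 14 and 36 CPM in SETD3 CT, so in neither line did every library lie below the control, and the level of the mRNA does not check the labels of these lines. Of the epithelial markers, EPCAM, KRT8, KRT18 and KRT19 were at 169 CPM or more in every library, whereas CDH1 was at 0.637 to 10.7 CPM. Of the markers of other cell types, PTPRC, CD3E, COL3A1, DCN, SNAP25 and ALB were at 0 in all 18 libraries, and COL1A2, PDGFRB and HBB reached at most 0.962 CPM. Others were counted at low levels: PAX8 at 1.14 to 15.7 CPM, COL1A1 at 0 to 15.3, the blood marker LYZ at 0.134 to 14.3, APOA1 at 0 to 5.34, GFAP at 0 to 4.36 and RBFOX3 at 0.117 to 3.98 CPM. In the SETD3 table, KO2 replicate 1 and CT replicate 2 stood apart on the first principal component, which held 41.6% of the variance.

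The first bases of the mRNAs are shown for the 6 members with a textbook TOP start that have a start listed (EEF1A1, EEF1B2, EEF2, EIF4B, EIF3F and EEF1G), and for EIF2D, EIF4A2, EIF3B, EIF3C and EIF4G1, to which the results return. Each line holds 10 bases before and 20 bases from the RefSeq start on (build GRCh38.p14), read along the transcript, and capitals mark a C at the start base together with the unbroken run of C and T after it, where that run is at least 4 bases long.
EEF1A1 (chr6:73521013-73521042, minus strand): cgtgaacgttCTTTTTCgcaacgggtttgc
EEF1B2 (chr2:206159885-206159914, plus strand): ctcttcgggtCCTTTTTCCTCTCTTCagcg
EEF2 (chr19:3985444-3985473, minus strand): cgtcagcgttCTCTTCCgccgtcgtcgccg
EIF4B (chr12:53006446-53006475, plus strand): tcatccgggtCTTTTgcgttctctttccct
EIF3F (chr11:7987327-7987356, plus strand): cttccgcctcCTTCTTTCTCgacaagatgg
EEF1G (chr11:62573872-62573901, minus strand): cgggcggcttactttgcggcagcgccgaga
EIF2D (chr1:206612446-206612475, minus strand): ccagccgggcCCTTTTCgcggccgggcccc
EIF4A2 (chr3:186783567-186783596, plus strand): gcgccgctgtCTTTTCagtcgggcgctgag
EIF3B (chr7:2354817-2354846, plus strand): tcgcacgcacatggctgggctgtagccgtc
EIF3C (chr16:28688548-28688577, plus strand): tcccacccccgtggcaggcagccctgcacc
EIF4G1 (chr3:184314596-184314625, plus strand): gcggggagccggaaatggttgtggactacg
A start was found for 43 of the 53 members, and 12 of these had the tract at any of their starts, against 5.14% of all 27305 genes in the table. Of the 6 textbook TOP members with a start, 5 had it, and EEF1G did not at the base listed. EEF1B2 has a further listed start without the tract. A tract at the start base is a match of letters and no measure of translation.

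Elongation factors gave the highest levels. Per kb of transcript, EIF5A (the hypusinated factor that relieves stalled ribosomes) averaged 2820 CPM over the 18 libraries and EEF1G (a subunit of the eEF1B complex) 2340 CPM, with library ranges that overlapped. EEF1B2 followed at 1100, EEF2 at 894 and EEF1A1 at 887 CPM per kb. The kinase of eEF2, EEF2K, was the lowest of its role at 3.02 CPM per kb. All levels across the 2 tables rest on scaling within each table.

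In the other roles, EIF4A1, the RNA helicase of the cap-binding complex, led the eIF4 group at 670 CPM per kb, and the cap-binding protein EIF4E was lowest of all 53 at 0.454 CPM per kb. EIF4E lay within the library range of EIF4A2, the second eIF4A helicase, which averaged 0.566 CPM per kb. The low rank of EIF4E goes with the transcript length used for it, 11523 bases. Before division by length it averaged 5.23 CPM, above EIF4A2 (1.09 CPM), EIF2A (2.79 CPM) and ABCE1 (2.86 CPM). EIF3K led the eIF3 subunits at 523 and EIF3E was the lowest of them at 9.76 CPM per kb. Among start codon and subunit joining factors, EIF6, which keeps the ribosomal subunits apart, stood at 431 and EIF2A at 1.27 CPM per kb. EIF2S2, the beta subunit of eIF2, stood at 83.1 and EIF2B3, a subunit of its exchange factor, at 5.79 CPM per kb. Release factor GSPT1 reached 29.3 CPM per kb, and the recycling ATPase ABCE1 0.729.

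From the highest to the lowest member the level per kb differed 6220-fold. It went with GC content across the 53 genes (Spearman's rho 0.69; 0.6 when length and GC were taken over all protein-coding transcripts), and the 10 highest had a median GC of 54.5% against 42.2% for the 10 lowest. The genes share the same libraries, and the part of GC content in the levels was not tested. Some low members also lie across a gene of the opposite strand that was counted higher: EIF2A averaged 2.79 CPM and SERP1 202, EIF4A2 1.09 and RFC4 16, ABCE1 2.86 and OTUD4 6.62. Since the strand setting of the counting is not given in the sources used here, reads of such pairs cannot be told apart.

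**Figure D1:**
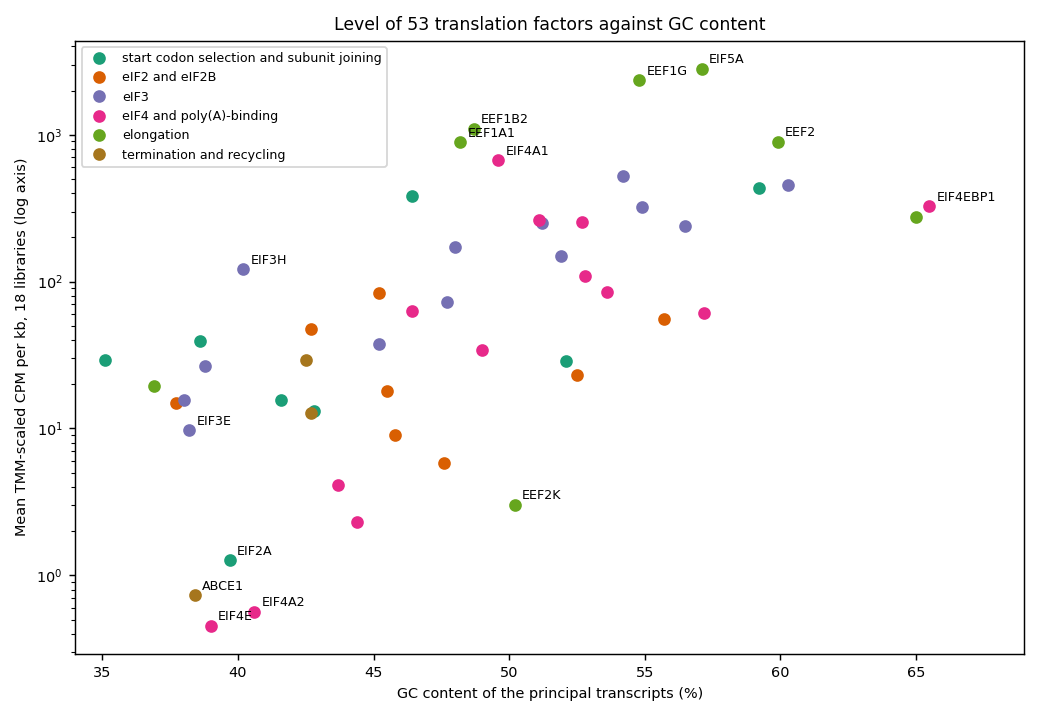
Mean TMM-scaled CPM per kb over 18 libraries (log axis) against GC content of the principal transcripts, 1 point for each of the 53 translation factors, coloured by role. Levels are higher towards high GC (rho 0.69); EIF4E, EIF4A2, ABCE1 and EIF2A lie lowest.

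ACTB-mut against Actin KO asks what the H73A form changes in knockout cells. One member of the set rose, EEF1B2, the exchange subunit that recharges eEF1A with GTP. This is 1 of 53 members called, where 0.922% of all 13882 tested genes were called; a call is an adjusted p below 0.05 by edgeR over all tested genes of the table. At an unadjusted p below 0.05 there were 11 of the 53 members, a higher share than the 1597 of 13882 genes (11.5%). The difference in share was not tested. EEF1B2 was at 1490, 1120 and 1210 CPM in ACTB-mut, against 845, 869 and 758 CPM in Actin KO. The groups did not overlap. Its log2 fold change was 0.63 (SE 0.11, adjusted p = 0.0153, n = 3 each, edgeR). The call was lost without any single Actin KO replicate (adjusted p = 0.0582, 0.0532 and 0.0976 by edgeR without replicates 1, 2 and 3) and without ACTB-mut replicate 1 (0.0823), and with GC and length offsets it depended on the transcripts used (0.0272 over all protein-coding transcripts, 0.0564 over principal ones). It was also lost when a replicate block was fitted with either version of the offsets (0.0797 and 0.151, edgeR). In ACTB-WT, EEF1B2 was at 928, 1010 and 1040 CPM, also above every Actin KO library (log2 fold change 0.27, adjusted p = 0.379, edgeR). ACTB-mut against ACTB-WT gave 0.36 (adjusted p = 0.177, edgeR) and no call, so the rise was not shown to be particular to the H73A form.

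EEF1A1, the eEF1A isoform of most tissues, was at 2910, 3250 and 3730 CPM in ACTB-mut, against 2300, 1920 and 1240 CPM in Actin KO. Every ACTB-mut library lay above every Actin KO library, but the fold change of 0.86 (SE 0.21) had an adjusted p of 0.0929 by edgeR and was not called. DESeq2 called it (adjusted p = 0.00372), as did edgeR without Actin KO replicate 1 (0.0374), without ACTB-WT replicate 2 (0.0443), without ACTB-WT replicate 3 (0.0478) and with no filter on low counts (2.49e-10). The main fit of the same libraries gave an unadjusted p of 0.00134 by edgeR. With no filter, every row with any count entered the estimate of the spread, and the drop in p was not examined. Calls with no filter, here and below, are therefore no further evidence.

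The next members by p did not pass the test. EIF4H, a helper of the eIF4A helicase, averaged 687 ± 73.3 CPM in ACTB-mut and 533 ± 70.1 CPM in Actin KO (SD, n = 3 each), a log2 fold change of 0.37. In ACTB-WT it averaged 692 ± 23.7 CPM, a log2 fold change of 0.38 against Actin KO (adjusted p = 0.193, edgeR). The eIF3 subunit EIF3C (-0.29) and the scaffold EIF4G1 (-0.39) lay lower in ACTB-mut. Of all 53 members, 12 had groups that did not overlap, or 22.6%, beside 18.5% of all genes tested. Most members are highly counted, so the share was also taken over genes averaging 50 CPM or more, a level set after seeing the data: it was 12 of 40 members, or 30%, beside 30.4% of all such genes. Calls at that level were 1 of 40 members, beside 3.7% of all such genes. The shares of unadjusted p-values below 0.05, here and below, were not taken at that level.

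ACTB-WT against Actin KO asks the same of wild-type actin. Here EIF3B, a scaffold subunit of eIF3, rose, and no other member was called, 1 of 53 beside 1.12% of all genes tested. An unadjusted p below 0.05 was found for 14 of 53 members, a higher share than the 1559 of 13882 genes (11.2%). The difference in share was not tested. EIF3B was at 838, 934 and 714 CPM in ACTB-WT, against 471, 479 and 486 CPM in Actin KO. All 3 ACTB-WT libraries lay above the narrow range of Actin KO. Its log2 fold change was 0.79 (SE 0.16, adjusted p = 0.0231, edgeR). The call was lost without any single Actin KO replicate (adjusted p = 0.116, 0.102 and 0.0804 by edgeR without replicates 1, 2 and 3) and without ACTB-WT replicate 1 (0.0842) or 2 (0.12). SNX8, on the opposite strand across the gene, averaged 59.4 CPM against 720 for EIF3B.

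EIF3A, the largest eIF3 subunit, was at 207, 253 and 262 CPM in ACTB-WT, against 164, 170 and 179 CPM in Actin KO, with no overlap and a log2 fold change of 0.50 (SE 0.14, adjusted p = 0.131, edgeR). PABPC4, a poly(A)-binding protein, averaged 223 ± 12 CPM in ACTB-WT and 295 ± 27.8 CPM in Actin KO, and EIF6 512 ± 39.2 CPM in ACTB-WT and 661 ± 26.8 CPM in Actin KO. Neither was called by edgeR (adjusted p = 0.153 and 0.164), and DESeq2 called PABPC4 (0.0386) and EIF3A (0.0211).

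EIF4A2 had no count in any of the 3 ACTB-WT libraries, against 6, 40 and 15 counts in Actin KO. If 3 counts are assumed over the group, it was 15.1-fold lower in ACTB-WT. With no count in ACTB-WT, the log2 fold change has no fixed size, so no interval is given. The adjusted p was 0.129 by edgeR, 0.0437 by edgeR with no filter on low counts and 0.00881 by DESeq2. ACTB-mut held 9, 45 and 23 counts, 15.9-fold higher than ACTB-WT under the same assumption. Here the adjusted p was 0.103 by edgeR, 0.0318 by edgeR with no filter and 0.00635 by DESeq2. EIF4A2 passed the filter on low counts only through libraries of ACTB-mut and Actin KO, and its difference from ACTB-WT rests on few counts. Its p-values are therefore given without a conclusion. Its paralog EIF4A1 held 99.6% or more of the counts of the pair in every library.

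In ACTB-WT against Actin KO, 19 members had groups that did not overlap, or 35.8% of 53, beside 16.7% of all genes tested. Among members averaging 50 CPM or more it was 18 of 40, or 45%, beside 24.5% of all genes at that level. Of these 40 members 1 was called, beside 3.27% of all genes at that level. These shares are a description of counts without a test. The median log2 fold change of the members was 0.02 and that of all genes -0.01.

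ACTB-mut against ACTB-WT tests the 2 actin forms against each other. EEF1A1 rose and EIF3C fell, 2 of 53 members, beside 1.24% of all genes tested. An unadjusted p below 0.05 was found for 9 of 53 members, a higher share than the 1666 of 13882 genes (12%). The difference in share was not tested. Groups did not overlap for 11 members, or 20.8%, beside 18.1% of all genes. At 50 CPM or more it was 10 of 40, or 25%, beside 27.4% of all genes at that level. Calls there were 2 of 40 members, beside 3.91% of all such genes. EEF1A1 was at 2910, 3250 and 3730 CPM in ACTB-mut, against 1410, 1070 and 1750 CPM in ACTB-WT. No libraries overlapped, and the log2 fold change was 1.23 (SE 0.21, adjusted p = 0.0138, edgeR). The call was lost without ACTB-mut replicate 2 (adjusted p = 0.0648, edgeR) or 3 (0.0667) and without ACTB-WT replicate 1 (0.0725), and with the replicate block and offsets over principal transcripts (0.0595).

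EIF3C was at 808, 780 and 754 CPM in ACTB-mut, against 1200, 1120 and 993 CPM in ACTB-WT. The ACTB-mut libraries lay close together and below all of ACTB-WT, with a log2 fold change of -0.50 (SE 0.11, adjusted p = 0.0338, edgeR). EIF3CL, a near-identical copy that took 15.2% of the counts of the pair, also fell, to 141 ± 20.6 CPM in ACTB-mut, against 218 CPM in ACTB-WT (log2 fold change -0.63, adjusted p = 0.0397, edgeR). Reads of the copies could be split between them by the counting, and summed they were called as well (adjusted p = 0.018, edgeR). The call of EIF3C was lost with GC and length offsets (adjusted p = 0.0913 over all protein-coding transcripts and 0.085 over principal ones, edgeR), without Actin KO replicate 1 (0.0581), without ACTB-mut replicate 1, 2 or 3 (0.0974, 0.0803 and 0.112) and without ACTB-WT replicate 1 or 2 (0.158 and 0.128). The replicate block alone lost it too (0.0862), as did the block with offsets over all protein-coding (0.17) or principal transcripts (0.167).

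EIF2D, which can place initiator tRNA without eIF2, was at 87.6, 72.8 and 77.1 CPM in ACTB-mut, against 41.2, 54.3 and 39.2 CPM in ACTB-WT. The groups did not overlap, and the log2 fold change of 0.82 (SE 0.19) missed the threshold by edgeR (adjusted p = 0.0553) and passed it by DESeq2 (0.0061) and by edgeR with no filter on low counts (0.024). EIF3B was at 427, 734 and 584 CPM in ACTB-mut, overlapping ACTB-WT (log2 fold change -0.51, adjusted p = 0.164, edgeR); without ACTB-mut replicate 2 it was called (-0.72, adjusted p = 0.0401), and with no filter on low counts as well (-0.51, adjusted p = 0.0175). The 3 actin comparisons share their groups, so their fold changes are not independent of each other.

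**Figure D2:**
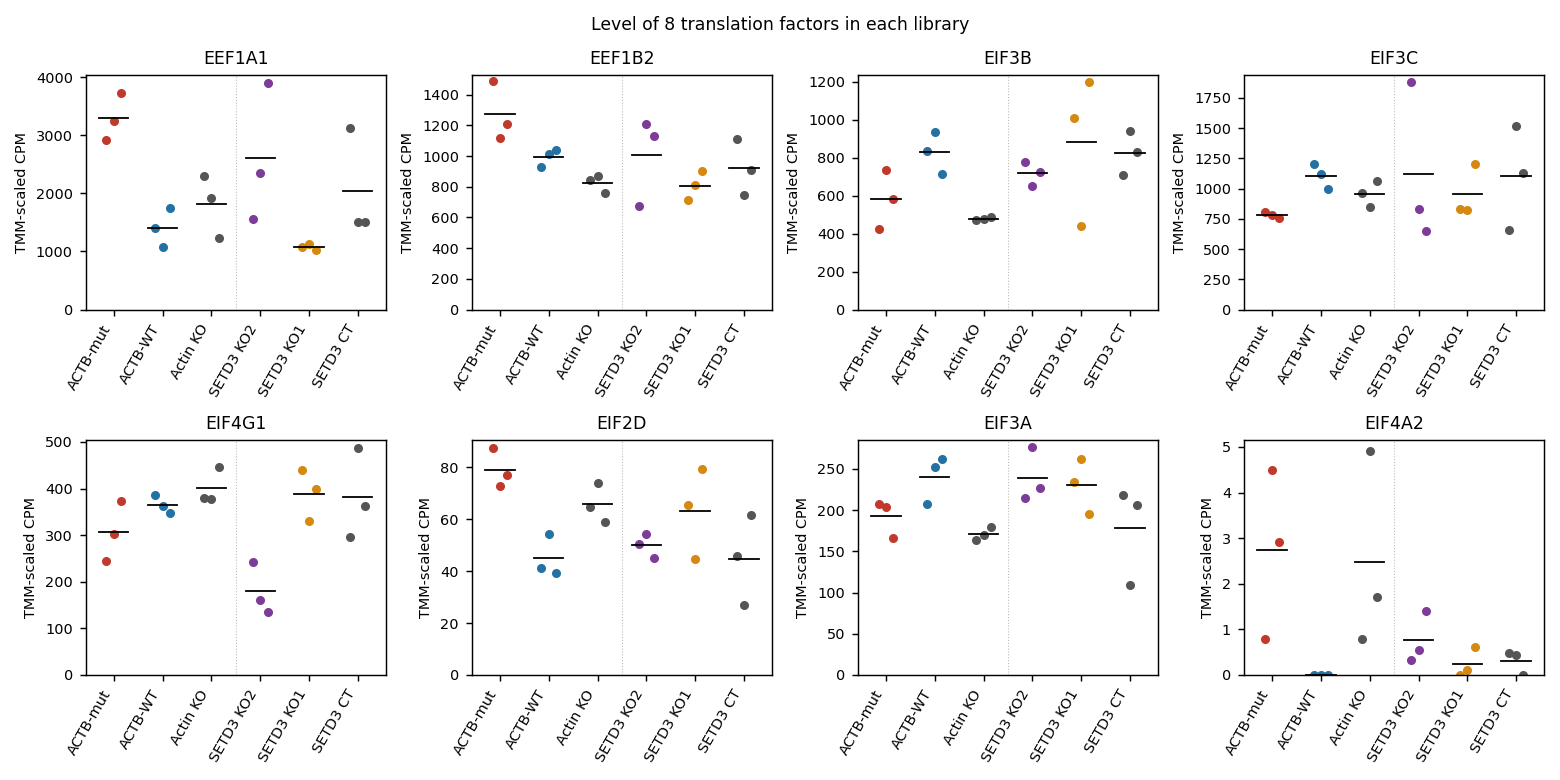
TMM-scaled CPM of 8 translation factors, 1 point for each of 3 libraries a group and a line at the mean; the dotted line parts the actin and SETD3 tables, which were scaled separately. EEF1A1 is highest in ACTB-mut within the actin table and EIF4G1 lowest in SETD3 KO2, at 135 to 243 CPM.

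By role, unadjusted p-values below 0.05 by edgeR were spread over 4 of the 6 roles in the actin table. In ACTB-mut against Actin KO they were found for 4 of 13 eIF4 and poly(A)-binding genes, 4 of 8 elongation factors, 2 of 8 start codon and subunit joining factors and 1 of 13 eIF3 subunits. In ACTB-WT against Actin KO they were found for 4 of 8 start codon and subunit joining factors, 4 of 13 eIF3 subunits, 4 of 13 eIF4 and poly(A)-binding genes and 2 of 8 elongation factors. In ACTB-mut against ACTB-WT the counts were 4 of 13 eIF3 subunits, 2 of 13 eIF4 and poly(A)-binding genes, 2 of 8 elongation factors and 1 of 8 start codon and subunit joining factors. Over all genes tested the share was 11.5%, 11.2% and 12% in the same order of comparisons. The 8 genes of eIF2 and eIF2B had no call in any of the 3 comparisons by edgeR or DESeq2, no unadjusted p below 0.05 by edgeR, and log2 fold changes between -0.32 and 0.58. A positive fold change was found for 7 of the 13 eIF3 subunits in ACTB-mut against Actin KO. It was found for 9 in ACTB-WT against Actin KO and for 5 in ACTB-mut against ACTB-WT. Of all 13882 genes tested, 7225, 6848 and 7207 had one in these comparisons. Summed over the 13 subunits, the level was 4360 ± 140 CPM in ACTB-mut, 5060 ± 133 CPM in ACTB-WT and 4560 ± 105 CPM in Actin KO (SD, n = 3 each). The 8 elongation factors summed to 15300 ± 832 CPM in ACTB-mut, 13900 ± 213 CPM in ACTB-WT and 13500 ± 740 CPM in Actin KO. In both sums, much of the difference between ACTB-mut and ACTB-WT lay in few genes. EIF3C averaged 781 CPM in ACTB-mut and 1110 CPM in ACTB-WT, EIF3B 582 and 829 CPM, and EEF1A1 3300 and 1410 CPM. Of the 8 elongation factors, 4 had a negative fold change in ACTB-mut against ACTB-WT. The release factors ETF1 and GSPT1 had log2 fold changes between -0.04 and 0.19, and none of the 3 termination and recycling genes was called by edgeR or DESeq2 or had an unadjusted p below 0.05 by edgeR.

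The 10 textbook TOP members had a median log2 fold change of 0.16 in ACTB-mut against Actin KO, 0.09 in ACTB-WT against Actin KO and -0.02 in ACTB-mut against ACTB-WT, beside 0.03, -0.01 and 0.02 for all genes tested. A positive fold change was found for 8 of the 10 in ACTB-mut against Actin KO, where 7225 of 13882 genes had one, for 8 in ACTB-WT against Actin KO (6848 genes) and for 5 in ACTB-mut against ACTB-WT (7207 genes). EdgeR called EEF1B2 in ACTB-mut against Actin KO and EEF1A1 in ACTB-mut against ACTB-WT, and no other gene of the 10. EEF2, which has the tract printed above, lay at 2360 to 2940 CPM in ACTB-mut and 2810 to 3180 CPM in Actin KO, opposite in sign to EEF1A1.

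**Figure D3:**
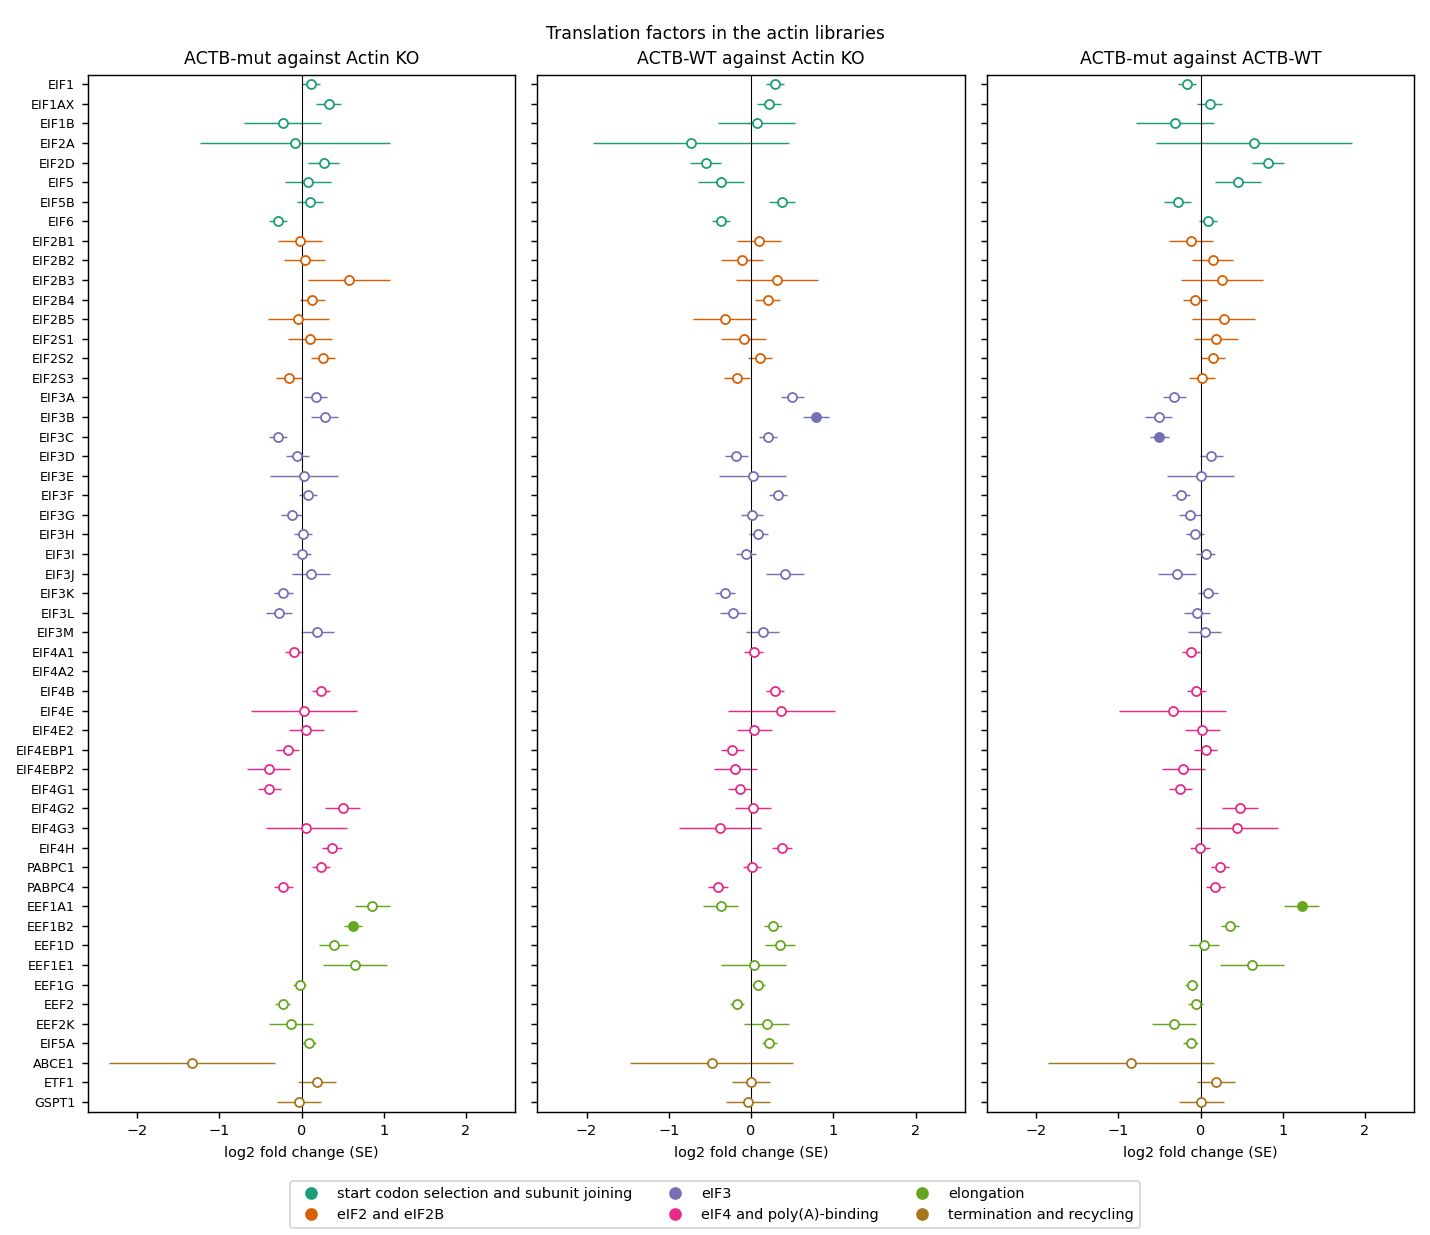
Log2 fold changes with their SE for the translation factors in the 3 actin comparisons, by role; filled points were called (adjusted p below 0.05, edgeR). EIF4A2 is not drawn because ACTB-WT has no count of it. EEF1B2 (0.63), EIF3B (0.79), EEF1A1 (1.23) and EIF3C (-0.50) are the filled points.

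Of the 53 members, 52 passed the filter on low counts in the SETD3 table, and EIF4A2 did not. SETD3 KO2 against SETD3 CT gave no call among them by edgeR, beside 0.0578% of all 13846 genes tested. An unadjusted p below 0.05 was found for 3 of the 52 members, beside 4.95% of all genes. Groups did not overlap for 3 members, or 5.77%, beside 10.2%, and DESeq2 called 1. That gene was EIF4G1, the scaffold that joins the cap-binding protein, eIF4A and eIF3. It was at 243, 160 and 135 CPM in SETD3 KO2, against 296, 487 and 362 CPM in SETD3 CT. The groups did not overlap, and the log2 fold change was -1.09 (SE 0.25), with an adjusted p of 0.268 by edgeR. It was 0.0259 by DESeq2, 0.0309 and 0.0253 by edgeR with GC and length offsets over all protein-coding and over principal transcripts, and 0.00179 by edgeR with no filter on low counts. Without KO2 replicate 1 and CT replicate 2 the fold change was -1.15 (adjusted p = 0.116, edgeR).

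In SETD3 KO2 against SETD3 KO1, EIF4G1 was again lower in every SETD3 KO2 library than in SETD3 KO1, where it was at 439, 330 and 399 CPM. Its log2 fold change was -1.12 (SE 0.25, adjusted p = 0.331, edgeR), and no member was called, beside 0.0289% of all genes tested. An unadjusted p below 0.05 was found for 3 of 52 members, beside 4.84% of all genes. Groups did not overlap for 6 members, or 11.5%, beside 11.9%, and DESeq2 called 1, EIF4G1 (0.0225). With KO2 replicate 1 and CT replicate 2 left out, the fold change was -1.40 and edgeR called it (adjusted p = 0.0228), and with GC and length offsets it did so too (0.0333 and 0.0353). In SETD3 KO1 against SETD3 CT its log2 fold change was 0.03 (SE 0.25, adjusted p = 0.998, edgeR). Both comparisons of SETD3 KO2 use the same 3 KO2 libraries.

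EEF1A1 was at 1560, 2350 and 3900 CPM in SETD3 KO2 and 1080, 1120 and 1030 CPM in SETD3 KO1, against 3130, 1500 and 1510 CPM in SETD3 CT. The KO1 libraries lay close together and below all others of the table, and those of SETD3 KO2 and SETD3 CT spread widely. The log2 fold change was -0.93 (SE 0.32, adjusted p = 0.743, edgeR) in SETD3 KO1 against SETD3 CT and 1.27 (SE 0.33, adjusted p = 0.571, edgeR) in SETD3 KO2 against SETD3 KO1. With no filter on low counts edgeR called both (0.00084 and 1.34e-08), from the same libraries, so these calls are no further evidence. Without KO2 replicate 1 and CT replicate 2 the fold changes were -1.09 (adjusted p = 0.257, edgeR) and 1.53 (0.0571).

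SETD3 KO1 against SETD3 CT had no member called by edgeR, beside 0.0144% of all genes tested, and none by DESeq2. An unadjusted p below 0.05 was found for 1 of 52 members, beside 5.75% of all genes. Groups did not overlap for 5 members, or 9.62%, beside 13.2%. The mean of both lines against SETD3 CT likewise had none called by edgeR, beside 0.0433%, and none by DESeq2. An unadjusted p below 0.05 was found for 3 of 52, beside 5.68%, and groups did not overlap for none, beside 3.26%. Next after EEF1A1 in SETD3 KO1 came EIF3J, a loosely bound eIF3 subunit, with 127, 71.4 and 63.3 CPM in SETD3 KO2 and 95.3, 76.4 and 64.2 CPM in SETD3 KO1, against 68.6, 27.3 and 44.8 CPM in SETD3 CT. Its log2 fold change for the mean of both lines was 0.81 (adjusted p = 0.804, edgeR), and 0.37 without KO2 replicate 1 and CT replicate 2. EIF1B, a paralog of the start codon factor EIF1, averaged 21.1 ± 10.1 CPM in SETD3 KO2 and 16 ± 4.61 CPM in SETD3 KO1, against 8.89 ± 2.89 CPM in SETD3 CT, and was not called. KO2 replicate 1 held 32.5 CPM of it and the other KO2 libraries 13.4 and 17.5 CPM, and its log2 fold change in SETD3 KO2 against SETD3 CT was 1.23, and 0.72 without KO2 replicate 1 and CT replicate 2.

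EEF2 had 2510, 1240 and 2850 CPM in SETD3 KO1, against 2800, 3460 and 3120 CPM in SETD3 CT, so that its fold change of -0.51 (adjusted p = 0.914, edgeR) came with 1 library far below the others. EIF3I, an eIF3 subunit, averaged 316 ± 11.6 CPM in SETD3 KO1 and 407 ± 11.3 CPM in SETD3 CT and was not called (adjusted p = 0.9, edgeR). EIF3D, the eIF3 subunit that can bind caps, averaged 347 ± 38.6 CPM in SETD3 KO2 and 271 ± 23.7 CPM in SETD3 CT. EIF4EBP2, a repressor of EIF4E, averaged 19 ± 8.87 CPM in SETD3 KO2 and 31.5 ± 9.73 CPM in SETD3 CT. Neither was called. Without KO2 replicate 1 and CT replicate 2 the log2 fold changes were -0.42 for EEF2 and -0.38 for EIF3I in SETD3 KO1 against SETD3 CT, and 0.34 for EIF3D and -0.67 for EIF4EBP2 in SETD3 KO2 against SETD3 CT, again with no call by edgeR.

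The median SE of a member's log2 fold change was 0.29 in SETD3 KO2 against SETD3 CT, against 0.16 in each actin comparison, and 9 of 52 members had an SE below 0.2, against 30 of 52. Differences of the size seen in the actin table were therefore less detectable in the SETD3 table.

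**Figure D4:**
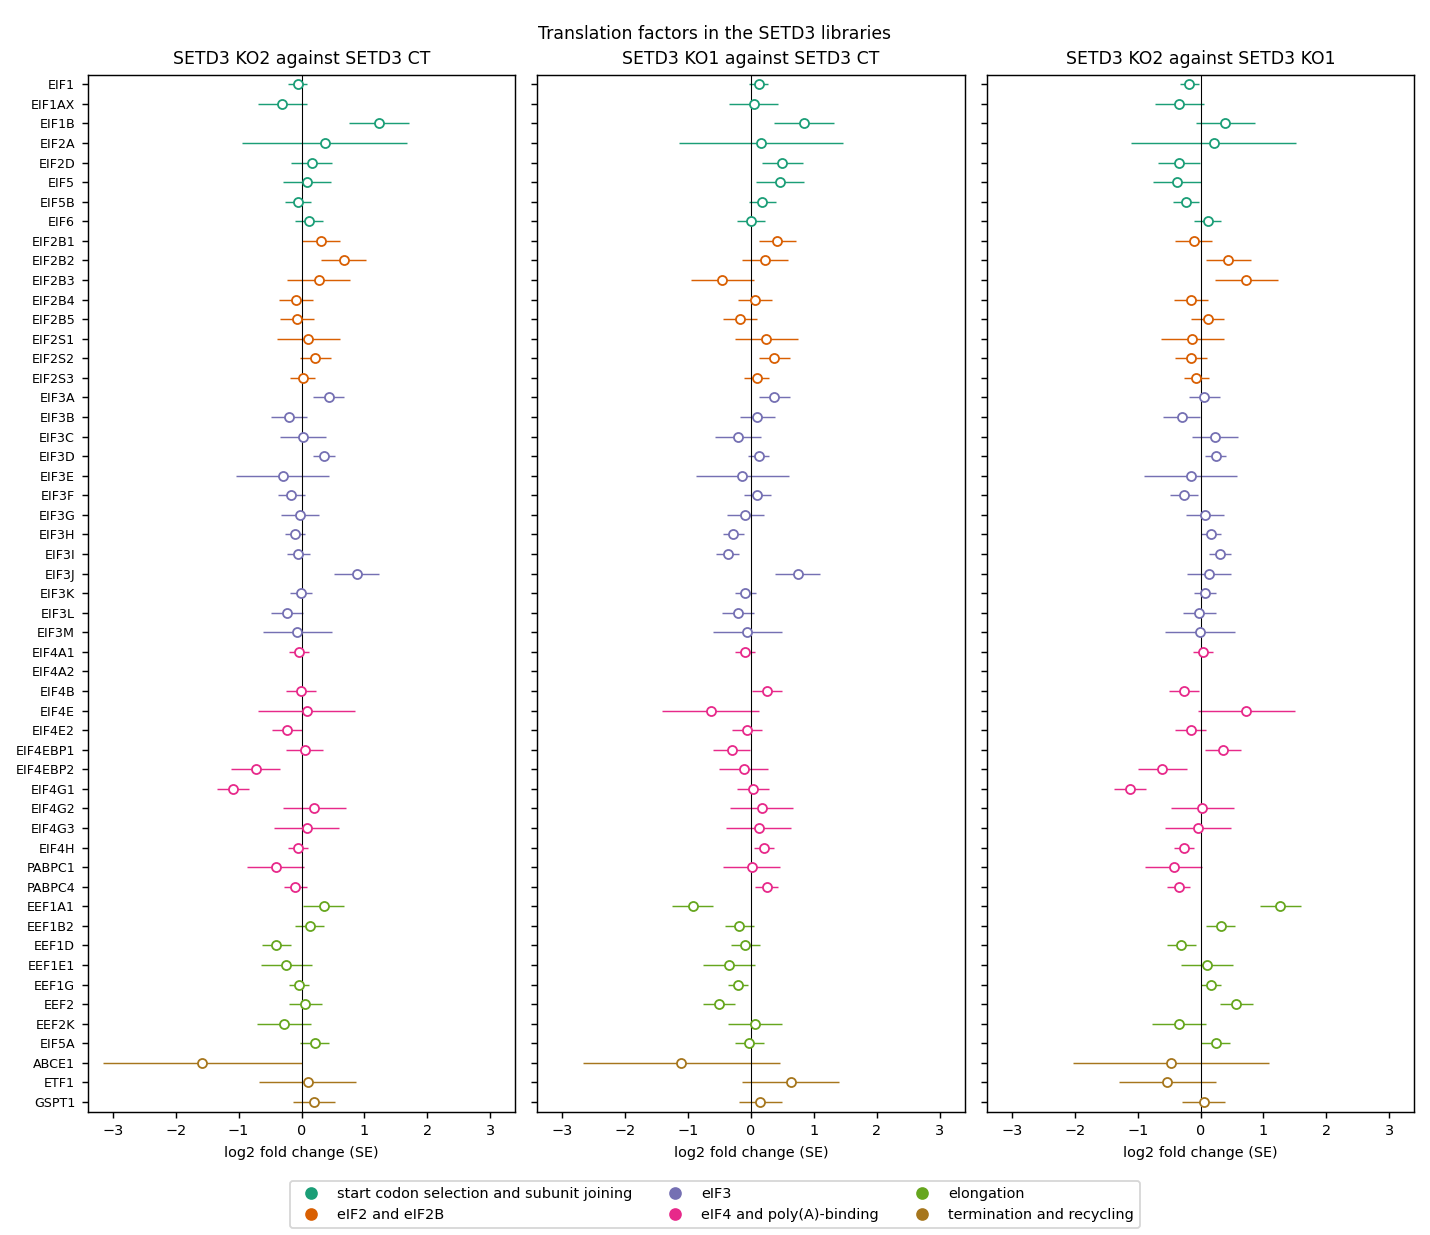
Log2 fold changes with their SE in the SETD3 comparisons, by role; no point is filled, since no member was called by edgeR. EIF4G1 lies at -1.09 and -1.12 in the comparisons of SETD3 KO2, and EEF1A1 at 1.27 in SETD3 KO2 against SETD3 KO1.

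Genes of low GC content, the members among them, shifted between libraries of the SETD3 table. In KO2 replicate 1, the 22 members below the median GC of 47.7% that averaged enough counts had a median log2 deviation of -0.31 from the mean of the table's 9 libraries, and in CT replicate 2 one of -0.36. In KO2 replicate 3 it was 0.33 and in CT replicate 1 it was 0.24. Over all genes below that GC content the values were -0.46 in KO2 replicate 1, -0.24 in CT replicate 2, 0.31 in KO2 replicate 3 and 0.32 in CT replicate 1, so the shift was not particular to the translation factors. ETF1, the release factor that reads stop codons, was at 2.55 CPM in KO2 replicate 1 (8 counts) and 41.6 and 75.6 CPM in the other KO2 libraries, and at 11.7 CPM in CT replicate 2 (53 counts) and 59.4 and 41.4 CPM in the other SETD3 CT libraries. EIF3M was at 12.4 CPM in KO2 replicate 1 and PABPC1, the main cytoplasmic poly(A)-binding protein, at 235 CPM, the lowest values of these genes in the table. In the actin libraries the median deviation of the low-GC members stayed between -0.15 and 0.15. Over all genes below that GC content it was 0.2, 0.12 and 0.086 in ACTB-mut. It was -0.076, -0.053 and 0.037 in ACTB-WT and 0.037, 0.0083 and -0.11 in Actin KO. Every ACTB-mut library thus lay above all others of the actin table by this measure. The part of GC content in the group differences was not tested.

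**Figure D5:**
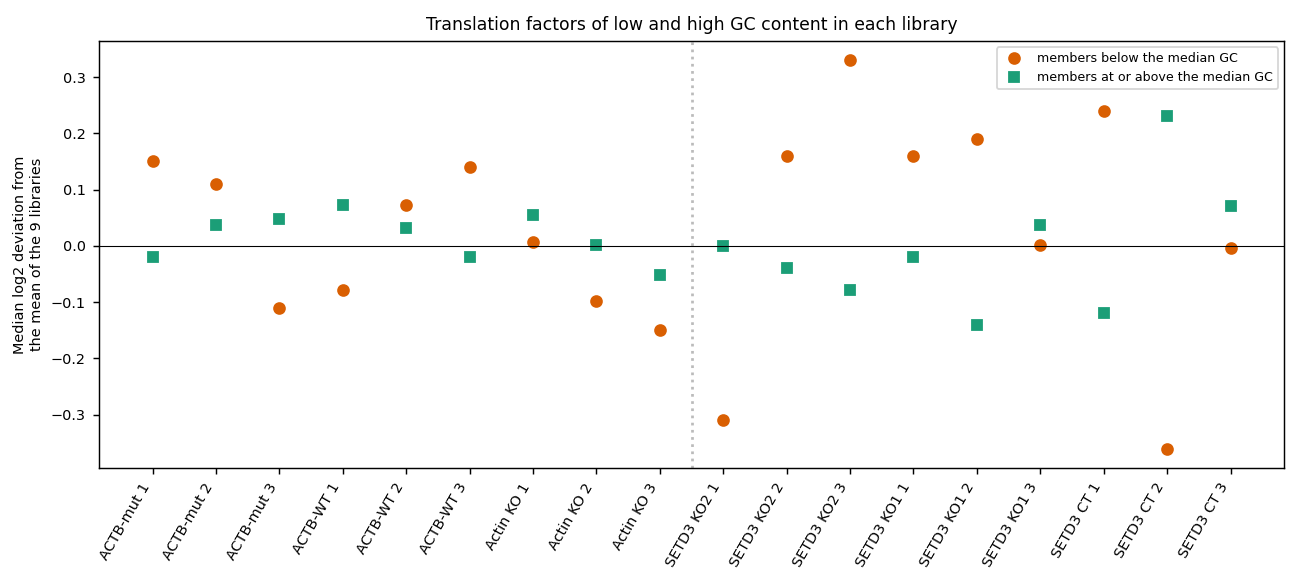
Median log2 deviation of translation factors below and at or above the median GC (47.7%) from the mean of the 9 libraries of their table, for each library. SETD3 KO2 replicate 1 (-0.31) and SETD3 CT replicate 2 (-0.36) show the lowest values for low-GC members.

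EEF1A2, the eEF1A isoform known from muscle and nerve, was counted beside EEF1A1 in every library. EEF1A1 held 79.1%, 78.9% and 78.8% of the counts of the pair in ACTB-mut, 60.9%, 48.1% and 63.3% in ACTB-WT and 66.7%, 66.9% and 53.8% in Actin KO. The ACTB-mut libraries lay above all others of the actin table. It held 38.5%, 54.7% and 69.6% in SETD3 KO2 and 36.5%, 44.1% and 30.5% in SETD3 KO1, against 74.9%, 54.9% and 47.9% in SETD3 CT. The level of EEF1A2 averaged 2050 ± 396 CPM in SETD3 KO2 and 1880 ± 466 CPM in SETD3 KO1, against 1310 ± 307 CPM in SETD3 CT. Its log2 fold changes against SETD3 CT, 0.65 in SETD3 KO2 and 0.52 in SETD3 KO1, were not called (adjusted p = 0.79 and 0.836, edgeR). Pseudogenes of EEF1A1 took 0.0268% of the counts of that family.

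Other genes around the machinery were counted by list. Of 33 other cytosolic factors and regulators, 31 passed the filter in the actin table, and EIF3CL, in ACTB-mut against ACTB-WT, was the 1 called by edgeR. DESeq2 called it too, and in the same comparison LARP1, a binder of TOP mRNAs, which averaged 75.8 ± 3.84 CPM in ACTB-mut and 104 ± 4.69 CPM in ACTB-WT (log2 fold change -0.45, adjusted p = 0.202, edgeR). Of 16 genes of mTOR and MNK signalling to eIF4, AKT1, the kinase upstream of mTOR, fell in ACTB-mut against Actin KO, to 140 ± 6.11 CPM in ACTB-mut, against 235 CPM in Actin KO (log2 fold change -0.75, adjusted p = 0.0312, edgeR). RHEB, the GTPase that activates mTOR, fell in ACTB-WT against Actin KO, to 78.8 ± 7.86 CPM in ACTB-WT, against 158 CPM in Actin KO (adjusted p = 0.00706, edgeR). Each is 1 of 16 genes, beside 0.922% and 1.12% of all genes called. In the 3 actin comparisons 3, 2 and 3 of the 16 had an unadjusted p below 0.05 by edgeR, beside 11.5%, 11.2% and 12%. The list's median log2 fold changes were 0.01, -0.02 and 0.04. Leaving out single libraries was not tried for the calls of AKT1 and RHEB. None of the 10 tested genes of the eIF2 kinase and phosphatase list was called in the actin table by edgeR, and an unadjusted p below 0.05 was found for 2 in ACTB-mut against Actin KO, beside 11.5% of all genes, none in ACTB-WT against Actin KO, beside 11.2%, and 2 in ACTB-mut against ACTB-WT, beside 12%. DESeq2 called ATF4, the transcription factor whose mRNA is translated when eIF2 is phosphorylated, which averaged 280 ± 36.3 CPM in ACTB-mut and 194 ± 12.2 CPM in Actin KO (log2 fold change 0.53, adjusted p = 0.0856, edgeR). None of the 9 hypusine and diphthamide enzymes was called in the actin table by either tool. An unadjusted p below 0.05 by edgeR was found for 1, in ACTB-mut against ACTB-WT, beside 12% of all genes. None of the 10 mitochondrial factors was called by edgeR. They had 3 unadjusted p below 0.05 in ACTB-mut against Actin KO, beside 11.5% of all genes, and 1 in ACTB-WT against Actin KO, beside 11.2%. There was none in ACTB-mut against ACTB-WT, beside 12%. DESeq2 called MTRF1, a mitochondrial release factor at 0 in Actin KO, in both comparisons with that group. Both calls rest on the same group without counts, and MTRF1 could be tested only through the other groups. They are therefore given without a conclusion.

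No gene of these 5 lists was called in any SETD3 comparison by edgeR. Of their 74 tested genes, 3 had an unadjusted p below 0.05 in SETD3 KO2 against SETD3 CT, beside 4.95% of all genes, 7 in SETD3 KO1 against SETD3 CT, beside 5.75%, 7 for the mean of both lines, beside 5.68%, and 2 in SETD3 KO2 against SETD3 KO1, beside 4.84%. DESeq2 called 1, TSC2, which restrains mTOR, in SETD3 KO2 against SETD3 CT. It averaged 35.6 ± 6.67 CPM in SETD3 KO2 and 70.4 ± 10.5 CPM in SETD3 CT (log2 fold change -0.98, adjusted p = 0.514, edgeR).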

How the data were processed

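Poly(A) RNA of 18 HCT-116 libraries was measured. The authors deposited RSEM expected counts per gene, not normalized; per the submitters' processing notes, reads were processed with Trim Galore 0.4.5, cutadapt 1.15, RSEM 1.2.28 and Bowtie2 on GRCh38. The annotation release and strand setting are not given in the sources used here. Counts were rounded, and each table was fitted with its 9 libraries in edgeR 4.0.16 (R 4.3.3): filterByExpr, TMM scaling, robust quasi-likelihood F tests, two-sided, Benjamini-Hochberg adjustment over 13882 and 13846 genes, called below 0.05. The SE was derived from each F statistic, as the size of the log2 fold change over its root. The steps were tested on simulated data.

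The members and lists were chosen with earlier results of these data known. Named per comparison were all called members, filled to 5 by unadjusted p, and the highest and lowest member of each role. Length and GC came from GENCODE 29. Both were first taken as the median over all protein-coding transcripts, which gave partial transcripts for some members; APPRIS principal transcripts were adopted for levels per kb after that was seen, and GC and length offsets were run with both, the principal version being an alternative chosen after seeing the data. So were summing near-identical copies and leaving out both libraries that stood apart. Other alternatives were relative log expression scaling, no filter, DESeq2 1.42.0, a replicate block and leaving out each library. Start sequences are from RefSeq, with members on chromosome 8 left out.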

Additional observations from a re-analysis of the deposited data

Results flagged for a closer look

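For 2 members the effects of the 2 actin forms differed by a direct test. EEF1A1 had a log2 difference of 1.23 in ACTB-mut against ACTB-WT, where it was 0.86 in ACTB-mut against Actin KO and -0.37 in ACTB-WT against Actin KO. EIF3C had a log2 difference of -0.5 in ACTB-mut against ACTB-WT, where it was -0.29 in ACTB-mut against Actin KO and 0.21 in ACTB-WT against Actin KO. The comparisons share the Actin KO libraries, and both calls depended on single libraries.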

How the results depend on the processing

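Of 650 named fold changes recomputed under an alternative, none changed sign, 597 kept their side of the threshold, 27 lost a call and 26 gained it. The named members were picked by low p in the same libraries, so kept signs say little. All losses fell on the called fold changes. Of 18 alternatives each, 7 lost the call of EEF1B2, 5 that of EIF3B, 4 that of EEF1A1 and 11 that of EIF3C. Counts of called members moved as follows. ACTB-mut against Actin KO had 1, with 2 under DESeq2 or no filter on low counts, 0 with GC and length offsets over principal transcripts, and 0 with the replicate block and either version of these offsets; leaving out 1 library gave 0 to 2. ACTB-WT against Actin KO had 1, with 4 under DESeq2 and 2 with no filter, and 0 to 1 with 1 library left out. ACTB-mut against ACTB-WT had 2, with 4 under DESeq2, 5 with no filter, 1 with either version of the offsets, 1 with the replicate block, and with block and offsets 1 over all protein-coding and 0 over principal transcripts; 1 library left out gave 0 to 2. From 0, no filter gave 1 in SETD3 KO1 against SETD3 CT, 1 in SETD3 KO2 against SETD3 CT and 2 in SETD3 KO2 against SETD3 KO1, and the last 2 had 1 under DESeq2 and under either version of the offsets. SETD3 KO2 against SETD3 KO1 had 1 without both libraries that stood apart. Leaving out 1 SETD3 library gave 0 throughout. The causes were not tested.

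Whether EEF1B2 is called with GC and length offsets turned on which transcripts gave GC and length (adjusted p = 0.0272 over all protein-coding and 0.0564 over principal transcripts, edgeR). The versions were run one after the other, and neither is preferred.

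Same-numbered libraries did not deviate together (correlations between -0.58 and 0.23), so the numbers were not taken as pairs. Counts over all genes were 128, 155 and 172 in the order above for the actin comparisons, with 393, 428 and 517 under DESeq2, 371, 320 and 402 with no filter, 85, 89 and 83 with the replicate block, and as low as 34, 79 and 60 with 1 library left out. In the SETD3 table they were 2, 8, 6 and 4 for KO1, KO2 and their mean against SETD3 CT and for KO2 against KO1, with 93, 106, 117 and 74 under DESeq2 and 58, 68, 85 and 58 with no filter. With 3 libraries a group, the median SE of 0.29 limits the SETD3 table.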
